A study of Homo sapiens with 4 samples.

Results

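The integrated stress response genes described here were 33 genes of human Hep G2 hepatoma cells. They were the eIF2alpha kinases EIF2AK1, EIF2AK3 and EIF2AK4, the transcription factor ATF4, and serine, one-carbon and stress genes listed as its targets. The genes were chosen by name, with transporters and tRNA synthetases left out, and whether each is an ATF4 target was not tested. All 33 symbols matched a single Ensembl gene among the 62655 in the count table, and 32 of them were among the 14464 genes with enough reads to test. Hep G2 is an established line from a liver tumour. The cells were plated at 150000 per ml, made steatotic with oleic acid medium after 24 h, and transfected 24 h later with a mimic of LysTTT-5'tRF, a fragment from the 5' end of lysine tRNA, or with a negative control oligonucleotide. RNA was taken 24 h after transfection, from 2 mimic and 2 control libraries. Both groups were thus steatotic and both were transfected, and no untreated or lean cells were analysed here. Whether the replicates came from separate cultures is not stated in the labels. Every p-value and interval below is set by the spread of these 4 libraries alone, which may be technical. One pair of count columns is headed by the abbreviation of the negative control; the other pair is headed by a number without explanation and was read as the mimic, so every direction below rests on that reading.

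The integrated stress response lowers general protein synthesis and raises the translation of a few messages. Its kinases sense different stresses and all phosphorylate the initiation factor eIF2alpha: EIF2AK1 (HRI) senses heme shortage and mitochondrial stress, EIF2AK3 (PERK) unfolded protein in the endoplasmic reticulum, and EIF2AK4 (GCN2) uncharged tRNA. ATF4 protein then accumulates, mainly through translation of its message, and switches on genes for amino acid synthesis, redox balance and feedback control. ATF4 binds DNA with a partner of the C/EBP family at composite sites called C/EBP-ATF response elements (CARE). Messenger RNA counts show the targets of this pathway and not the phosphorylation of eIF2alpha or the amount of ATF4 protein.

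No integrated stress response gene passed the test for a change with the mimic. Of the 32 tested, 0 passed edgeR's quasi-likelihood test at a Benjamini-Hochberg adjusted p of 0.05, where 0.346% of all tested genes did (0.277% upward and 0.0691% downward). DESeq2 called 0 of the 22 that it gave an adjusted p, where it called 0.576% of all such genes, and limma voom called 1, ALDH18A1, where it called 0.346%. With upper-quartile factors 0 were called (0.318% of all tested genes), and with a filter at 10 CPM also 0 (0.575%), CPM being the count for every 1000000 reads after TMM scaling. Library totals and the older edgeR dispersion setting (legacy = TRUE) also gave 0, where 0.325% and 0.332% of all tested genes were called. At an unadjusted p under 0.05 there were 6, of which 5 were higher (ALDH18A1, PPP1R15B, ATF3, JDP2 and XPOT) and 1 lower (PCK2), where 9.43% of all tested genes passed (5.06% higher and 4.37% lower). In all 19 of the 32 lay above 0 and 13 below, and 50.4% of all tested genes lay above. The median log2 fold change, mimic over control, was 0.04 for the 32 genes and 0 for all tested genes, and the extremes were CBS at -0.40 and NUPR1 at 0.41. Library medians of the 32 genes, as log2 deviations from the mean of the 4 libraries, were 0.010 and 0.012 for the mimic and -0.004 and -0.045 for the control, in the order of library numbers. In bulk RNA a change in the number of cells that hold a transcript and a change in its amount per cell cannot be told apart.

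**Figure D1:**
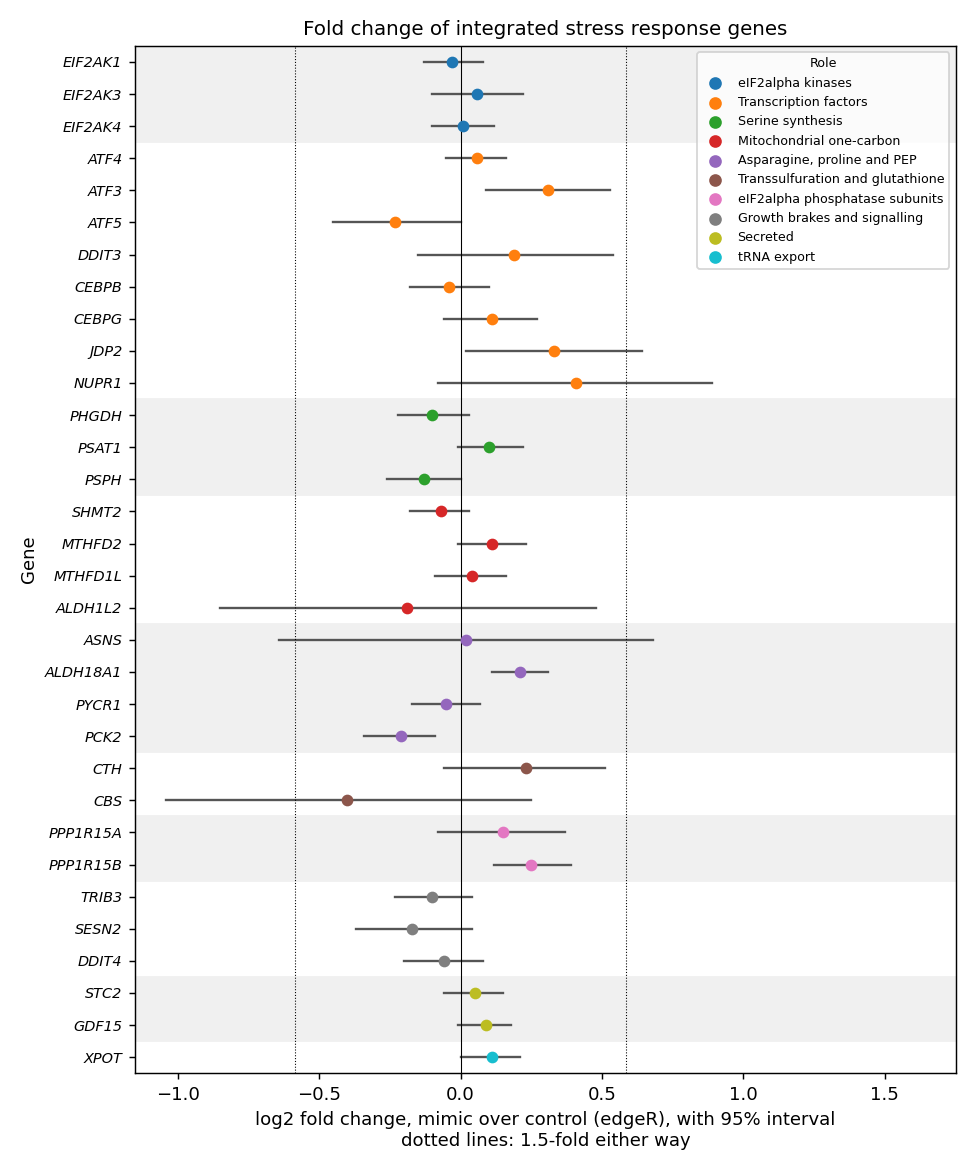
Points are log2 fold changes of mimic over control for the 32 tested genes, from edgeR's quasi-likelihood fit with 2 libraries per group, and bars are 95% intervals. Colours give the role, and dotted lines mark a 1.5-fold change either way. The intervals of ALDH18A1, PPP1R15B, ATF3 and PCK2 lie clear of 0, and those of JDP2 and XPOT reach almost to it. The intervals of ALDH1L2, ASNS, CBS, JDP2 and NUPR1 reach past a dotted line.

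The intervals show what size of change the spread of these libraries, which may be technical, leaves room for. For 27 of the 32 genes the whole 95% interval lay within a 1.5-fold change either way, against 67% of all tested genes. For 17 it lay within 1.2-fold, against 32.7%. These shares were not matched for abundance. The 5 with wider intervals, JDP2, NUPR1, ALDH1L2, ASNS and CBS, were all among the less abundant of the 32. The groups did not overlap in 16 of the 32 genes, 10 with both mimic libraries above both controls and 6 with both below. Over all tested genes the groups were separate in 39.1%, with the mimic above in 19.8% and below in 19.3%. In 22 of the 32 genes the gap between the libraries of 1 group exceeded the difference between the groups, as in 74.2% of all tested genes.

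**Figure D2:**
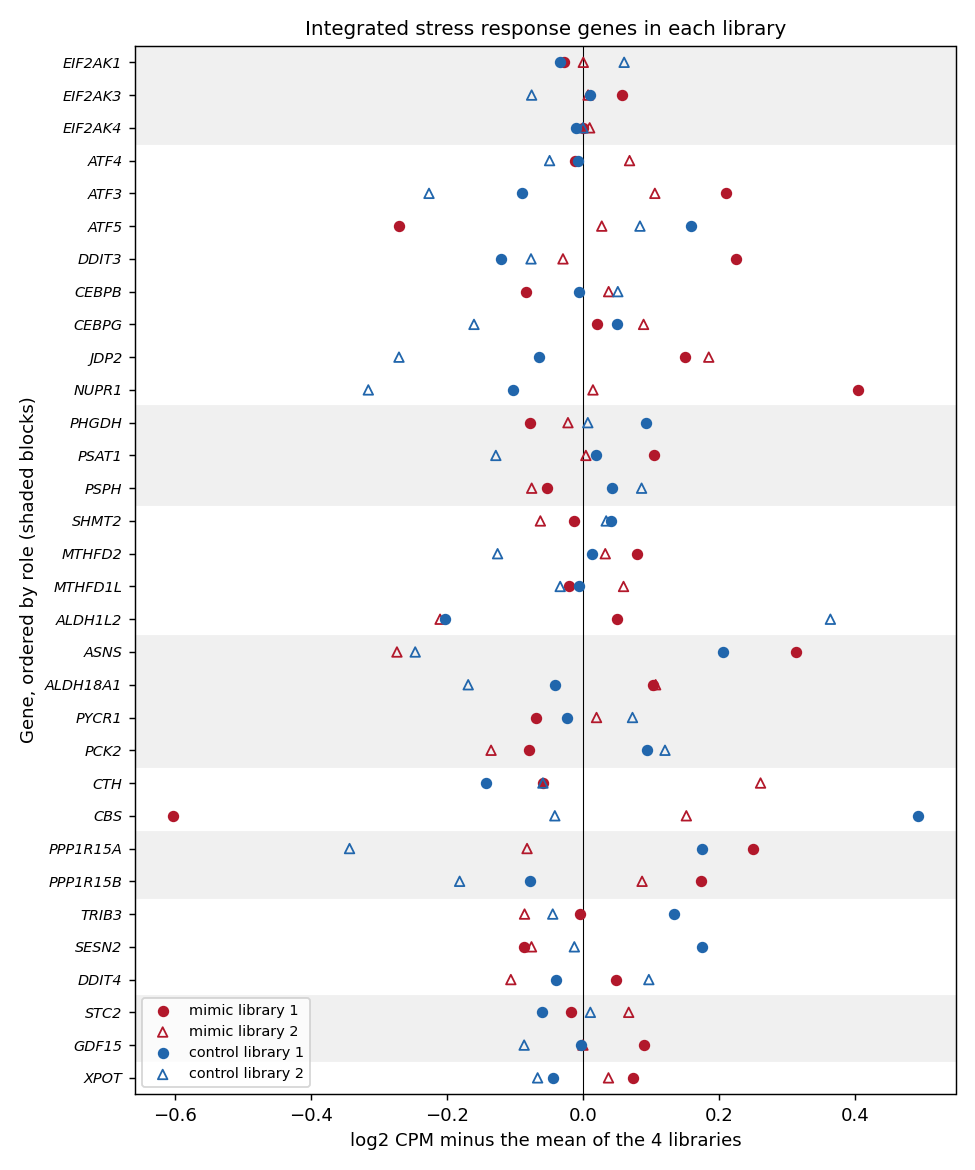
Each row is 1 of the 32 tested genes, and points give log2 CPM in each library minus the mean of the 4 libraries, red for mimic and blue for control. Red and blue are separate for 16 genes, among them PCK2, PSPH and PPP1R15B, and mix for the others, as for PPP1R15A and ASNS.

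The promoter windows were searched for the core letters of the ATF4 recognition element. RefSeq promoter windows (GRCh38.p14), from 250 bases before to 50 bases after an annotated start, were given for 27 of the 33 genes. The CARE core was searched on both strands as TGATGNAA, which contains no second searched motif. It was found in 7 of these 27 genes (25.9%), against 4.46% of 27305 genes with a window. By window the shares were 20.5% of 44 and 3.62% of 35116, since a gene can have several windows. Most of the 33 genes were chosen as known ATF4 targets, so these shares only describe the list. The windows of these 7 genes are shown because they carry the core letters of that element. Each sequence is in the direction of the gene, 5' to 3', ends before the RefSeq start that its window belongs to, and has the 8 letters of the core in capitals. CHAC1 holds the core on the opposite strand. In JDP2, CEBPG, ASNS, MTHFD1L and CHAC1 the stretch lies downstream of the outermost start in GENCODE 29, since these genes have several annotated starts. Stretches are 30 bases long where a wider one would touch an exon in GENCODE 29.
JDP2, chr14:75427950-75428021, plus strand: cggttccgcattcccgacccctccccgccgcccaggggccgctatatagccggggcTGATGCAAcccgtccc
CEBPG, chr19:33374015-33374112, plus strand: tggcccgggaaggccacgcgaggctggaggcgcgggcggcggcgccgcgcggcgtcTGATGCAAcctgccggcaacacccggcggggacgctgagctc
ASNS, chr7:97872458-97872487, minus strand: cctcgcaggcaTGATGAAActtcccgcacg
MTHFD1L, chr6:150866346-150866375, plus strand: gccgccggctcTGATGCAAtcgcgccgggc
ATF3, chr1:212565160-212565279, plus strand: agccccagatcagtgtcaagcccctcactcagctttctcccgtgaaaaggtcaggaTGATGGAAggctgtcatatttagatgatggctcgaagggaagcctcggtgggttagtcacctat
CHAC1, chr15:40953251-40953280, plus strand: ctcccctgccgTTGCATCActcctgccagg
PPP1R15B, chr1:204411948-204412067, minus strand: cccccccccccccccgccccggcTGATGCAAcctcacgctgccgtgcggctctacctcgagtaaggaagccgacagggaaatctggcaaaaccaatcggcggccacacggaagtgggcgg

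The first base of the core lay 16 bases before the nearest annotated start in JDP2, 42 in CEBPG, 68 in ASNS, 90 in MTHFD1L, 191 in ATF3, 209 in CHAC1 and 227 in PPP1R15B. Among these 7 genes the letter at the free position was C in 5, A in ASNS and G in ATF3, each read on the strand that carries the core. None of the 6 that were tested passed the test, and CHAC1 was not tested. The log2 fold changes of the 6 tested were 0.33 for JDP2, 0.11 for CEBPG, 0.02 for ASNS, 0.04 for MTHFD1L, 0.31 for ATF3 and 0.25 for PPP1R15B, with a median of 0.18, while the 20 tested genes whose windows lack the core had a median of 0.06, with 12 above and 8 below 0. The 6 genes without a window had a median of -0.06, with 1 above 0 (NUPR1, 0.41) and 5 below. The difference between these sets was not tested. All genes of the list were chosen with earlier results of these data known, so these medians only describe it. ASNS lay below 0 with library totals in place of TMM scaling and without mimic library 1 or control library 2, and MTHFD1L without mimic library 2. The search reads only these letters in these windows and says nothing of binding.

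The 3 kinases lay close to 0, and the libraries of both groups overlapped for each. EIF2AK4, the sensor of uncharged tRNA, had 147 and 148 CPM in mimic libraries 1 and 2, and 146 and 147 CPM in controls, in the same order. Its log2 fold change was 0.01 with a 95% interval from -0.10 to 0.12 (adjusted p = 0.986), and it lay just below 0 with library totals (-0.011) and upper-quartile factors (-0.003). EIF2AK1, the heme and mitochondrial sensor, had 254 and 259 CPM in mimic libraries and 253 and 270 CPM in controls. The groups overlapped, and the log2 fold change of -0.03 (interval -0.13 to 0.08) turned to 0.022 without control library 2. EIF2AK3, the sensor in the endoplasmic reticulum, had 50 and 48.3 CPM in mimic libraries and 48.4 and 45.6 CPM in controls, again overlapping, with a log2 fold change of 0.06 (interval -0.10 to 0.22). For all 3 kinases a change of 1.2-fold or more in either direction lay outside the interval. The exons of EIF2AK1 overlap the opposite-strand gene AIMP2 over 9.59% of their length and those of EIF2AK3 overlap antisense genes over 15.1%.

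ATF4 itself, the central factor, was abundant and close to level. It stood at 278 and 294 CPM in the mimic libraries and 279 and 271 CPM in controls, so that mimic library 1 lay between the controls. The log2 fold change was 0.06 (SE 0.05, interval -0.05 to 0.16, adjusted p = 0.794), which leaves a change of up to 1.11-fold upward within the interval. ATF4 (ENSG00000128272) lies on chromosome 22 from 39519695 to 39522685 of GRCh38, on the plus strand, protein-coding and with no exon shared with another annotated gene.

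The bZIP factors downstream of ATF4 did not move together. ATF3, a repressor and activator induced by many stresses, had 27.2 and 25.3 CPM in mimic libraries and 22.1 and 20.1 CPM in controls (26.2 ± 1.33 and 21.1 ± 1.41, SD, n = 2 each). Both mimic libraries were above both controls. The fold was 1.24 (log2 fold change 0.31, SE 0.11, interval 0.09 to 0.53), which did not pass over all genes (adjusted p = 0.324). ATF5, which is translated under the same control as ATF4 and acts in the mitochondrial stress response, had 20.5 and 25.2 CPM in mimic libraries and 27.6 and 26.2 CPM in controls. Its mimic libraries lay below the controls, mainly through mimic library 1, with a log2 fold change of -0.23 (adjusted p = 0.532). The exons of ATF5 overlap opposite-strand genes, chiefly NUP62, over 21.2% of their length, so part of its count is uncertain.

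DDIT3, which encodes the pro-apoptotic factor CHOP, was low, with 10.8 and 9.05 CPM in the mimic and 8.50 and 8.76 CPM in controls. The groups were separate, but the log2 fold change of 0.19 had an interval from -0.15 to 0.54 (adjusted p = 0.787). Opposite-strand genes, chiefly MARS1, cover 31.6% of its exon length, and a same-strand gene 8.03%. JDP2, a bZIP repressor, had 12.3 and 12.6 CPM in mimic libraries and 10.6 and 9.19 CPM in controls, with separate groups and a log2 fold change of 0.33 (adjusted p = 0.508). NUPR1, a small stress-induced chromatin protein, had 6.34 and 4.84 CPM against 4.46 and 3.85 CPM, with a log2 fold change of 0.41 and the widest interval among the factors, -0.08 to 0.89. The C/EBP partners of ATF4 lay closer to 0. CEBPG, its usual partner in amino acid genes, had 57.7 and 60.5 CPM in mimic libraries and 58.9 and 50.9 CPM in controls, so that only control library 2 stood apart (log2 fold change 0.11, adjusted p = 0.725). CEBPB, the liver acute phase factor, had 68.5 and 74.5 CPM against 72.3 and 75.2 CPM, overlapping, at -0.04 (0.013 without mimic library 1).

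The serine synthesis enzymes pointed in different directions. PHGDH, the first enzyme of the pathway, stood at 96.1 ± 2.58 CPM in mimic libraries and 103 ± 4.11 CPM in controls (SD, n = 2 each), at a log2 fold change of -0.10. PSAT1, the transaminase of the second step, had 208 and 194 CPM in mimic libraries and 196 and 177 CPM in controls. The groups overlapped and the log2 fold change was 0.10 (adjusted p = 0.605). PSPH, the phosphatase that releases serine, had 79.7 and 78.5 CPM against 85.2 and 87.8 CPM, with both mimic libraries below and a log2 fold change of -0.13 (adjusted p = 0.545). PSAT1 thus lay above 0 and its neighbours before and after it in the pathway below.

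The mitochondrial one-carbon enzymes take the serine carbon on to formate, and they also lay on both sides of 0. SHMT2, which splits serine to glycine, was at 176 ± 3.91 CPM in mimic libraries and 185 ± 0.711 CPM in controls (log2 fold change -0.07). MTHFD2, the dehydrogenase and cyclohydrolase of the next step, had 159 and 154 CPM in mimic libraries and 152 and 138 CPM in controls, with separate groups and a log2 fold change of 0.11 (adjusted p = 0.588). Opposite-strand genes cover 33.2% of its exon length. MTHFD1L, the formate-releasing synthetase, stood at 109 ± 4.42 and 106 ± 1.81 CPM (log2 fold change 0.04), and ALDH1L2, which oxidises formyl groups to carbon dioxide, was near the limit of the test at 2.34 ± 0.295 and 2.65 ± 0.726 CPM (-0.19, and 0.116 without control library 2).

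ALDH18A1 came closest to passing of all 33 genes. It encodes the mitochondrial enzyme that turns glutamate into the precursor of proline and ornithine. Its level was 419 and 420 CPM in the mimic libraries and 379 and 347 CPM in controls (420 ± 0.826 and 363 ± 23.1, SD, n = 2 each), with both mimic libraries above. The fold was 1.16 (log2 fold change 0.21, SE 0.05, interval 0.11 to 0.31), with an adjusted p of 0.0642 in edgeR's quasi-likelihood test. It was called by limma voom (adjusted p = 0.0482), where 0.346% of all genes were, and not by DESeq2 (adjusted p = 0.0646). Without control library 1 it was called at a log2 fold change of 0.28 (edgeR adjusted p = 6.14e-05), and without control library 2 it stood at 0.15 (adjusted p = 0.441). ALDH18A1 (ENSG00000059573) lies on the minus strand of chromosome 10 from 95605929 to 95656706 of GRCh38, protein-coding, with no exon overlap.

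The next proline enzyme did not follow it. PYCR1, which makes proline from the product of ALDH18A1, was at 130 ± 5.66 CPM in mimic libraries and 134 ± 5.98 CPM in controls (SD, n = 2 each; log2 fold change -0.05, interval -0.17 to 0.07). The intervals of ALDH18A1 and PYCR1 did not overlap, but the difference between the genes was not tested. PCK2, the mitochondrial enzyme that makes phosphoenolpyruvate, had 94.9 and 91.3 CPM in mimic libraries and 107 and 109 CPM in controls. Both mimic libraries were below, the log2 fold change was -0.21 (SE 0.06, interval -0.34 to -0.09), and the adjusted p was 0.185. PCK2 (ENSG00000100889) lies on chromosome 14 from 24094053 to 24110598 on the plus strand, protein-coding, with no exon overlap.

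Asparagine synthetase and most of the sulfur enzymes gave few reads, and only CTH of these was measured closely enough for an interval within 1.5-fold. ASNS, the classical ATF4 target that makes asparagine, had 49 and 40 reads in the mimic libraries and 50 and 35 in the controls (3.20, 2.13, 2.97 and 2.17 CPM). Another gene on the same strand (ENSG00000284707) covers 44.6% of the ASNS exon length and itself held 13, 18, 17 and 19 reads in the same order. Between 6.29% and 6.36% of each library's reads were set aside by HTSeq as ambiguous between genes, so the ASNS count may leave out reads that belong to it; the part that this played was not tested. CBS, which starts the conversion of homocysteine to cysteine, had 29 and 60 reads with the mimic and 68 and 45 in the control (log2 fold change -0.40, interval -1.04 to 0.25). A further Ensembl entry (ENSG00000274276), which RefSeq pairs with a near-identical copy of CBS, held 0 reads in all 4 libraries. How HTSeq treated reads that align to several places is not given in the sources used here. CTH, the next enzyme, stood at 15.9 ± 2.48 and 13.7 ± 0.592 CPM (SD, n = 2 each; log2 fold change 0.23, adjusted p = 0.647). CHAC1, which breaks down glutathione, had 0 and 1 reads with the mimic and 3 and 3 in the control and was not tested. With 0 reads, mimic library 1 allows up to 0.196 CPM of CHAC1, counting error only, which covers the control values of 0.178 and 0.186 CPM.

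The regulatory subunits that return eIF2alpha to its unphosphorylated state stood apart from each other in their spread. PPP1R15B, the constitutive subunit, had 102 and 96.1 CPM in the mimic libraries and 85.7 and 79.8 CPM in controls (98.9 ± 3.83 and 82.7 ± 4.16, SD, n = 2 each), with separate groups. Its fold was 1.19 (log2 fold change 0.25, SE 0.06, interval 0.12 to 0.39), with an adjusted p of 0.105, and it was called without control library 1 (0.31, edgeR adjusted p = 0.00522) but not by limma voom or DESeq2. PPP1R15B (ENSG00000158615) lies on the minus strand of chromosome 1 from 204403387 to 204411791, protein-coding, with no exon overlap. PPP1R15A, the stress-induced subunit GADD34, had 102 and 81.0 CPM in mimic libraries and 96.8 and 67.6 CPM in controls. Each group held 1 high and 1 low library and the groups overlapped, so the log2 fold change of 0.15 (adjusted p = 0.732) rested on which libraries were used. It was 0.31 without mimic library 2 and 0.43 without control library 1, both called (edgeR adjusted p = 0.0445 and 2.11e-05), and -0.026 without mimic library 1 and -0.086 without control library 2. 

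**Figure D3:**
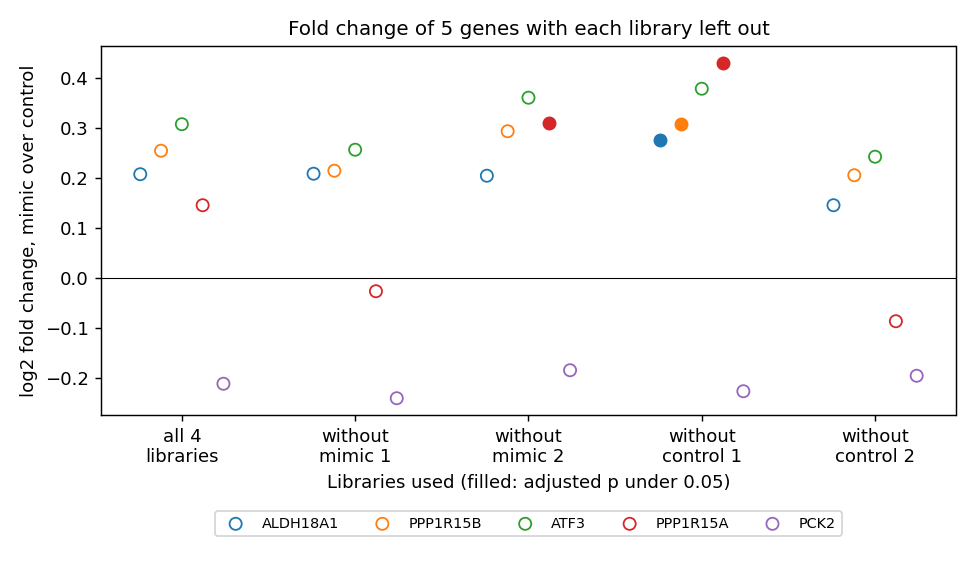
Log2 fold changes of 5 genes from edgeR's quasi-likelihood fit with all 4 libraries and with each library left out in turn; filled circles have an adjusted p under 0.05. PPP1R15A spans -0.086 to 0.43, while ALDH18A1, PPP1R15B and ATF3 stay above 0 and PCK2 below 0 in all 5 fits.

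Leaving out control library 1 gave 3 called members, ALDH18A1, PPP1R15A and PPP1R15B, all higher with the mimic. In that fit 2.78% of all tested genes were called. With a block for the column numbers 3 members were called as well, where 2.12% of all tested genes were; nothing in the labels shows that equal numbers pair the libraries. Without mimic library 2 the 1 call among the 32 genes was PPP1R15A, where 0.789% of all tested genes were called. Without mimic library 1 or control library 2 no member was called, where 0.130% and 0.144% of all tested genes were.

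The brakes on growth signalling, TRIB3, SESN2 and DDIT4, are typical ATF4 and CHOP targets, and none of the 3 was above 0. TRIB3, a pseudokinase that inhibits AKT and feeds back on ATF4, was at 106 ± 4.46 CPM in mimic libraries and 113 ± 9.68 CPM in controls (SD, n = 2 each; log2 fold change -0.10). SESN2, a leucine sensor that restrains mTORC1, was at 26.8 ± 0.121 and 30.1 ± 2.77 CPM, with both mimic libraries below (-0.17, adjusted p = 0.636). DDIT4, also called REDD1, was at 112 ± 8.83 and 117 ± 8.09 CPM, overlapping (-0.06), and lay just above 0 without mimic library 2 (0.021) or control library 2 (0.014). An antisense gene covers 41.2% of its exon length.

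The secreted products of the response were abundant and hardly differed. GDF15, the stress cytokine that acts on the hindbrain, had 549 and 516 CPM in mimic libraries and 515 and 486 CPM in controls, with mimic library 2 and control library 1 almost equal (log2 fold change 0.09, interval -0.01 to 0.18, adjusted p = 0.577). STC2, a secreted glycoprotein, stood at 253 ± 10.2 and 245 ± 8.47 CPM (SD, n = 2 each; 0.05). XPOT, which exports mature tRNA from the nucleus, had 206 and 201 CPM in mimic libraries and 190 and 187 CPM in controls. Its groups were separate at a 1.08-fold difference (log2 fold change 0.11, adjusted p = 0.519).

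Levels were also compared between genes, as CPM per kilobase of exon (GENCODE 29 lengths). The length merged the exons of all annotated transcripts of a gene, 5674 bases for NUPR1, and was not that of a single message. The order of the genes depends on this length as well as on the counts. GDF15 was highest at 248, followed by ATF4 at 112, ALDH18A1 at 104 and PSAT1 at 88.5; the library ranges of GDF15 and ATF4 were separate, whereas those of ATF4 and ALDH18A1, and of ALDH18A1 and PSAT1, overlapped. Among the kinases EIF2AK1 stood at 46.7, EIF2AK4 at 12.3 and EIF2AK3 at 8.85, with separate ranges. ATF3 (5.86) and DDIT3 (7.11) were far below ATF4. The range of DDIT3 overlapped that of CTH next to it, and that of CTH overlapped ATF3. No cells with a known state of the response were analysed here for reference, so these levels do not show how active it was. The lowest were NUPR1 at 0.859, ASNS at 0.588, CBS at 0.439, ALDH1L2 at 0.293 and CHAC1 at 0.0508. For ASNS and CBS the part played by the overlapping gene and the copy described above was not tested.

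**Figure D4:**
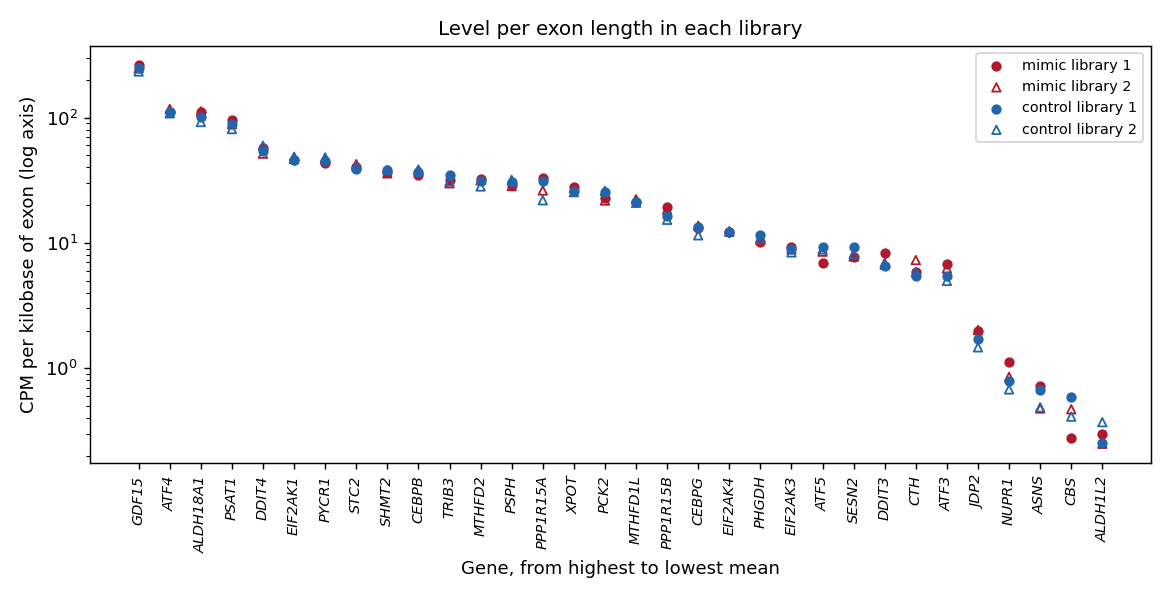
Level of each tested gene as CPM per kilobase of exon on a log axis, ordered by the mean, with 1 point per library (red mimic, blue control). The order runs from GDF15 at 248 to ALDH1L2 at 0.293, and the points of the 4 libraries lie close together beside the differences between genes.

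The wider pathway held few changes. Of 20 tested genes of the eIF2 axis, which include the eIF2 and eIF2B subunits, the double-stranded RNA kinase EIF2AK2 and the GCN2 activator GCN1, 0 passed over all genes in edgeR, DESeq2 or limma voom (median log2 fold change 0.04), where edgeR called 0.346% of all tested genes, and 3 had an unadjusted p under 0.05, where 9.43% of all did. The smallest p was that of DELE1, which relays mitochondrial stress to EIF2AK1, with 45 and 45.9 CPM in the mimic and 50.8 and 53.5 CPM in controls (-0.20, adjusted p = 0.413). Of 12 tested genes of the IRE1 and ATF6 arms 0 passed with any of the 3 tools (median 0.04) and 0 had an unadjusted p under 0.05, with XBP1 nearest (0.09, adjusted p = 0.603). Of 22 tested amino acid transporters and tRNA synthetases linked to ATF4, 0 passed in edgeR or DESeq2 and 1 in limma voom (median 0.04), where these tools called 0.346%, 0.576% and 0.346% of all genes. An unadjusted edgeR p under 0.05 was found for 4, against 9.43% of all tested genes, and the serine and alanine carrier SLC1A4 was nearest, with 195 and 201 CPM in the mimic and 173 and 163 CPM in controls (0.24, adjusted p = 0.0523, and 0.0479 with limma voom).

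Of 17 further targets of ATF4 or CHOP 15 were tested and 1 rose (median log2 fold change 0.02), where 0.277% of all tested genes rose. This was GPT2, the mitochondrial alanine transaminase, with 556 and 564 CPM in the mimic libraries and 499 and 465 CPM in controls. Its fold was 1.16 (log2 fold change 0.22, SE 0.05, edgeR adjusted p = 0.0340). DESeq2 (adjusted p = 0.0253) and limma voom (0.0254) called it too, where they called 0.576% and 0.346% of all genes. In edgeR it was also called with library totals (0.0462), legacy = TRUE (0.0417) and a filter at 10 CPM (0.0382). The call was lost without mimic library 1 (adjusted p = 0.102), mimic library 2 (0.0884) or control library 2 (0.221), and with upper-quartile factors (0.0505) or no filter (0.754). FGF21, the ATF4-induced liver hormone, had 1 read in each library numbered 1 and 0 in each numbered 2, and was not tested; 0 reads allow up to 0.160 CPM in mimic library 2 and 0.186 CPM in control library 2. Of 34 further enzymes of the same pathways 32 were tested, with a median log2 fold change of -0.04, 12 above and 20 below 0. In the other lists more genes lay above 0 than below. These were 15 of 20 tested for the eIF2 axis and 10 of 15 for the further ATF4 or CHOP targets. For the transporters and tRNA synthetases they were 16 of 22, and for the IRE1 and ATF6 arms 8 of 12. Over all tested genes 50.4% lay above 0, and no list was tested as a set.

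**Figure D5:**
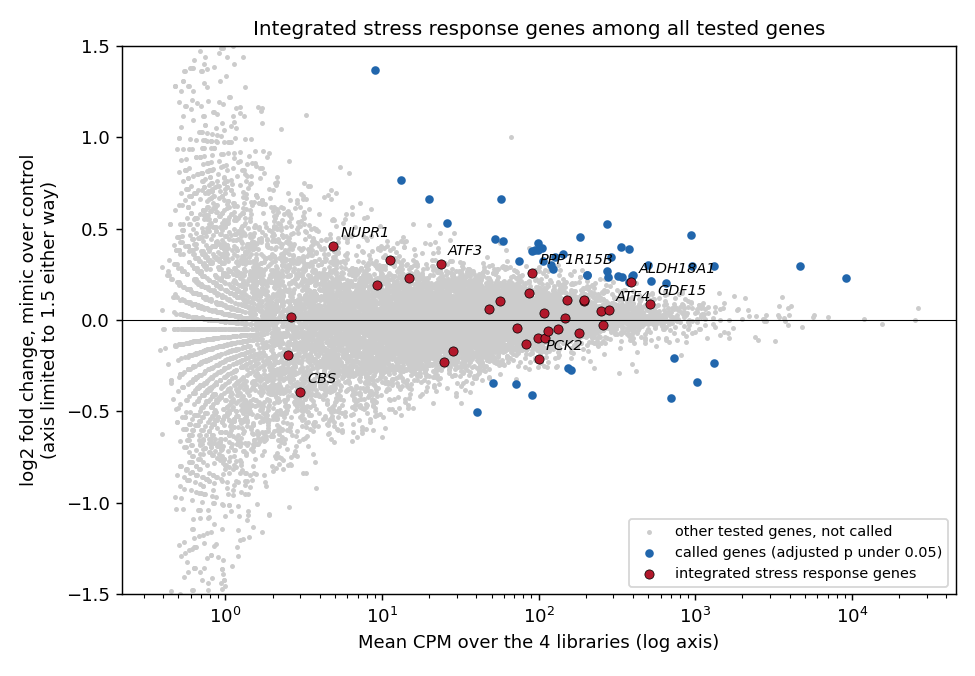
Log2 fold change of mimic over control against mean CPM (log axis) for the 14464 tested genes, with the 32 integrated stress response genes in red and the 50 genes called at an adjusted p under 0.05 in blue. The red points lie within the grey cloud between -0.40 and 0.41, and none of them is called. The vertical axis is limited to 1.5 either way.

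Reads in genes ranged from 15430539 to 18961222 per library. Hepatocyte-like expression was read from 9 hepatocyte markers, which do not identify the line. Their summed level ranged from 48600 to 48900 CPM in mimic libraries and from 45900 to 47700 CPM in controls. ALB, among them, rose (log2 fold change 0.23, edgeR adjusted p = 0.0109). Of 3 leukocyte markers 2 were at 0 in all libraries and the sum did not exceed 0.160 CPM, and of 4 fibroblast and stellate markers, summing to between 30.3 and 35.3 CPM, COL1A2 was at 0. The endothelial markers PECAM1 and VWF summed to between 8.07 and 9.69 CPM. The summed cholangiocyte markers, KRT19 with KRT7 at 0, ranged from 352 to 366 CPM in mimic libraries and from 390 to 459 CPM in controls, and their part in the differences above was not tested. Over all tested genes 40 rose and 10 fell.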

How the data were processed

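Poly(A)-selected, stranded libraries from 500 ng of total RNA (RNA integrity number above 9.5) were sequenced, per the labels' protocols. The deposited values were raw read counts per Ensembl gene and library, with no normalization by the authors. FastQC, Bowtie2, STAR and HTSeq with GRCh38.p14 are named in the submitters' processing notes; the sources used here do not give versions, annotation release or strand setting, so genes with an antisense neighbour are less certain. Columns starting 25_ were taken as mimic and NC_ as control; the names do not show which titled sample each is, so libraries are numbered by column. The 5 HTSeq summary entries, 23.1% to 24.1% of each total, were kept out.

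Low genes were removed by filterByExpr (count of 10, total of 15), and the rest tested in edgeR 4.0.16 (R 4.3.3; glmQLFit with legacy = FALSE, TMM factors, glmQLFTest), with Benjamini-Hochberg adjustment over 14464 genes. The residual degrees of freedom were 2, and the moderated test used about 23.1. The steps were tested on simulated data. CPM values use TMM-scaled totals, and values with ± are means and SD of 2 libraries. Alternatives were DESeq2 1.42.0, limma 3.58.1 (voom), other scalings, filters, a block and each library left out. Promoters came from RefSeq (GRCh38.p14) and exon lengths from GENCODE 29 (GRCh38).

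All 33 genes and the pathway lists were chosen with earlier results of these data known. Libraries are listed gene by gene for the kinases, ATF4, the bZIP and C/EBP factors and the 12 smallest p-values; other lists give called genes or the smallest p, and FGF21. A gene that this rule would name is left out here.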

Additional observations from a re-analysis of the deposited data

How the results depend on the processing

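For the 32 genes 379 log2 fold changes were recomputed over 12 alternatives. Of these 358 kept their direction with no change of call seen, 8 passed the threshold and 13 turned sign, in 8 genes. DESeq2 gave an adjusted p to 22 of the 32, and its values for the others were judged by direction alone. The turned values, none of them called, were 0.022 for EIF2AK1, 0.116 for ALDH1L2, -0.185 for ASNS, -0.086 for PPP1R15A and 0.014 for DDIT4 without control library 2; 0.013 for CEBPB, -0.279 for ASNS and -0.026 for PPP1R15A without mimic library 1; -0.006 for MTHFD1L and 0.021 for DDIT4 without mimic library 2; -0.011 for EIF2AK4 and -0.002 for ASNS with library totals; and -0.003 for EIF2AK4 with upper-quartile factors. With each library left out in turn these genes ranged from -0.074 to 0.022 (EIF2AK1), -0.107 to 0.013 (CEBPB), -0.006 to 0.076 (MTHFD1L), -0.448 to 0.116 (ALDH1L2), -0.279 to 0.308 (ASNS), -0.086 to 0.431 (PPP1R15A) and -0.141 to 0.021 (DDIT4). The median of the 32 genes was 0.043 and ranged from 0.016 to 0.067 with a library left out. The number of these genes called was 0 with the settings of the report, 1 with limma voom, and 0 to 3 with a library left out. All genes called numbered 50, against 30 with DESeq2, 0 with no filter on low counts in edgeR (1514 at an unadjusted p under 0.05, adjusted over 30342 genes), and 20 to 424 with a library left out; the cause of the spread was not tested. Leaving out a library leaves a lone sample in 1 group, which is assumed to vary like the others.

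The columns of both groups carry the numbers 1 and 2, but nothing shows that equal numbers mark a shared culture or day. The differences between libraries 1 and 2 correlated across genes at 0.0234 between the groups. With a replicate block for these numbers 306 genes were called, 3 of them among the 32 (ALDH18A1 and PPP1R15B higher, PCK2 lower), where 2.12% of all tested genes were called.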

Other observations

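Enzymes around glutamate, picked after their values were seen and without a test of the set, are given here as values. GPT2, which passes the amino group of glutamate to alanine, and ALDH18A1, which reduces glutamate towards proline, each stood 1.16 times as high with the mimic, and GPT2 alone of this pair was called. Glutamine synthetase (GLUL) had 623 and 604 CPM in the mimic libraries and 584 and 544 CPM in the controls, at a log2 fold change of 0.12 (edgeR adjusted p = 0.371). OAT, which links ornithine to the same intermediate as ALDH18A1, had 101 and 105 CPM against 96 and 91.5 CPM (0.14, adjusted p = 0.494). ALDH4A1, which runs from that intermediate back to glutamate, lay on the other side of 0, with 149 and 159 CPM in the mimic libraries and 166 and 185 CPM in the controls (-0.18, adjusted p = 0.258). GLUD1, glutamate dehydrogenase, was at 0.06 (adjusted p = 0.715).

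In 12 of the 32 integrated stress response genes the library numbered 1 was above that numbered 2 in both groups (37.5%, against 26.5% of all tested genes), and in 6 it was below in both (18.8%, against 26.6%). PPP1R15A had the largest such gaps among genes above 10 CPM, 0.34 on the log2 scale between the mimic libraries and 0.52 between the controls.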
